A study of Mus musculus with 6 samples.

Results

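Snap25, Syt1, Ndrg4, Meg3, Stmn2 and Rbfox3 are 6 genes best known from neurons. In 6 single cells of the mouse brain sequenced as long cDNA molecules, all of their transcripts were found in the library of 1 cell classed as a mature oligodendrocyte. The genes were chosen by their measured transcript counts, high in that cell and 0 elsewhere, so these levels are a description and carry no test. They made up 6 of 6357 gene names and 45 of 36659 transcripts in the data set. Each transcript is 1 combination of a cell, a gene and a unique molecular identifier (UMI, a 6-base tag given to a cDNA before amplification), and it carries the number of reads that were merged into it.

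The cells came from the brain of CD-1 mice. The stage given for each is embryo, and neither the age nor the animal of a cell is stated. The study used stored cDNA of an earlier experiment and gives hippocampus and cortex as the source of the single cells. The embryo label stands beside a class that the study calls mature and myelinating, so it is not read as an age here. 4 of the 6 were labelled oligodendrocytes and belong to an immature class, Oligo1 (cells Oligo1-1 and Oligo1-2), and a mature myelinating class, Oligo5 (cells Oligo5-1 and Oligo5-2), while 2 were labelled oligodendrocyte progenitor cells (here OPC-labelled 1 and OPC-labelled 2) and are called vascular and leptomeningeal cells by the study. No cell was treated. With 2 cells a class, and nothing to say that they came from separate animals, cells are given one by one with no test between them, every interval is a 95% Wilson interval that covers counting error only, and the limit given for a count of 0 is 3 counts.

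Neurons release transmitter when synaptic vesicles fuse with the plasma membrane. SNAP25, a SNARE protein of the plasma membrane, forms part of the fusion machinery, and synaptotagmin 1 (Syt1) is the calcium sensor of the vesicle. Snap25 has a pair of mutually exclusive versions of exon 5, named 5a and 5b. As background, 5a prevails in the early brain and 5b takes over as neurons mature. Stathmin 2 (Stmn2) binds tubulin in growing axons, Rbfox3 encodes the splicing factor NeuN, Ndrg4 encodes a cytoplasmic protein of the NDRG family, and Meg3 is an imprinted long noncoding RNA.

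The sequences that tell the Snap25 forms apart are those of exon 5, read from the GENCODE M21 transcripts (GRCm38) on the plus strand. Exon 5a lies at chr2:136769743-136769860 and exon 5b at chr2:136770057-136770174, with 196 bases between them, and capitals mark the bases at which the versions differ.
exon 5a: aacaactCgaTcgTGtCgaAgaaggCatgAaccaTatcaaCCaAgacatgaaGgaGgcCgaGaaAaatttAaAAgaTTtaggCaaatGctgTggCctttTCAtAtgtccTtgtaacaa
exon 5b: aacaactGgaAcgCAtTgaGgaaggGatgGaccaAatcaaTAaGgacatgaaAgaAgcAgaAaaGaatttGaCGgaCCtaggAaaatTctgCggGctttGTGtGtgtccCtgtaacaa

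Both versions are 118 bases long and differ at 31 of them. Of the 206 residues of SNAP25, 9 differ, all between residues 58 and 89. Each version holds 4 cysteines, the residues through which SNAP25 is attached to the membrane, at positions 84, 85, 90 and 92 with 5a and at positions 85, 88, 90 and 92 with 5b.

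Snap25 had 19 transcripts in Oligo5-2, Syt1 had 9, Ndrg4 had 8, Meg3 had 5, Stmn2 had 3 and Rbfox3 had 1. Each of the 6 genes had 0 transcripts in Oligo5-1, Oligo1-1, Oligo1-2, OPC-labelled 1 and OPC-labelled 2. The 45 transcripts were 0.725% (0.542 to 0.968%) of the 6211 transcripts of Oligo5-2, and Snap25 alone was 0.306% (0.196 to 0.477%). A count of 0 allows a share of a gene of up to 0.0261% in Oligo1-1, the deepest cell with 11483 transcripts, up to 0.0509% in Oligo5-1 and up to 0.128% in OPC-labelled 1, the shallowest with 2338. The level of Snap25 in Oligo5-2 was above each of these limits, and those of Syt1 (0.145%) and Ndrg4 (0.129%) were close to the limit of OPC-labelled 1 and above the others. Meg3 (0.0805%) lay below the limit of OPC-labelled 1, Stmn2 (0.0483%) was above the limit of Oligo1-1 alone and Rbfox3 (0.0161%) was below that of every cell, so for these genes a lower level there was not detectable at this depth.

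Of the 1713 genes with 5 or more transcripts in the 6 cells, 22 (1.28%) had every transcript in Oligo5-2. Snap25, Syt1, Ndrg4 and Meg3 were among those 22, which follows from how they were chosen. The other cells had from 2 to 25 such genes. Of the genes that are no members, those with the most transcripts under the same pattern were Slc1a2 (17 transcripts, a glutamate transporter best known from astrocytes), the sodium channel gene Scn2a1 (14), the glutamate receptor gene Gria2 (13), Epha4, Serpinb1a and Spock3 (12 each), Fut9 and Mef2c (8 each), Scg5 (7) and Atrx (6, tied with Pld3, which was named after its values were seen).

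Oligo5-2 carried markers of oligodendrocytes. Of 12 genes of mature oligodendrocytes 11 were detected, with 881 transcripts or 14.2% of the cell (13.3 to 15.1%), among them Trf (239), Apod (71), Mog (35) and Mbp (31). The same list held 17.3% of Oligo5-1, 12.8% of Oligo1-1, 11.8% of Oligo1-2 and 3.68% and 6.06% of the OPC-labelled cells, where Apod had 86 and 261 transcripts. As a whole the list was thus not particular to the mature class. Trf and Apod had 119 and 60 transcripts in Oligo5-1, while Oligo1-1 and Oligo1-2 had 8 and 3 of Trf and 0 of Apod. Mbp had 19 in Oligo5-1 but 165 in Oligo1-1 and 57 in Oligo1-2, and Mog had 19, 52 and 2. The OPC-labelled cells had 9 and 10 of 10 genes of vascular and leptomeningeal cells, all of which were at 0 in Oligo5-2.

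**Figure D1:**
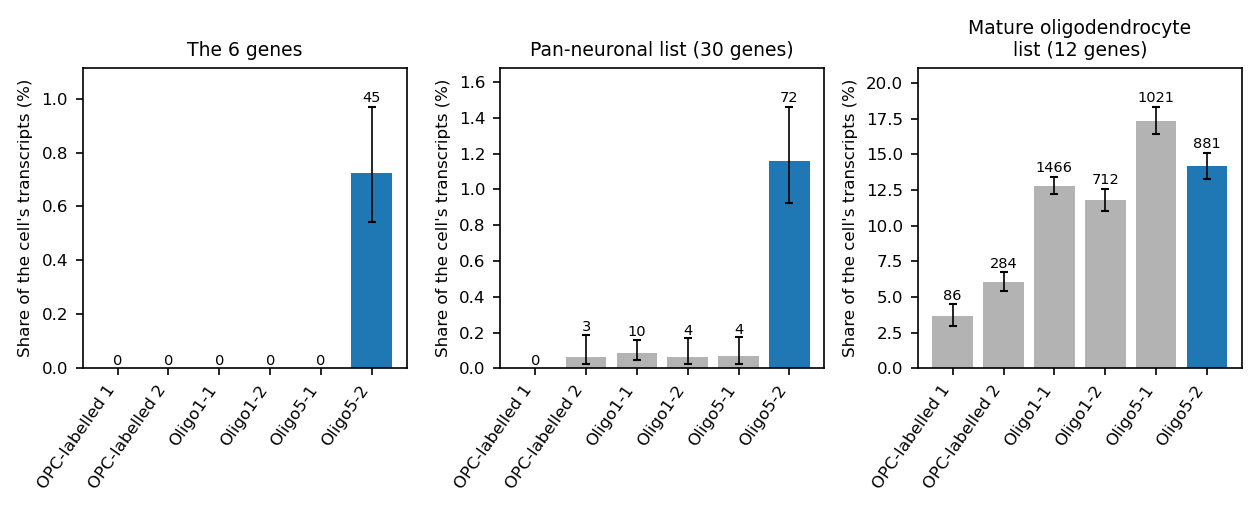
Share of each cell's transcripts (y axis, in %) taken by the 6 genes, by 30 other pan-neuronal genes and by 12 genes of mature oligodendrocytes; the number over each bar is the count of transcripts and whiskers are Wilson intervals, not drawn at a count of 0. Oligo5-2 held all 45 transcripts of the 6 genes and 72 of the 93 of the pan-neuronal list, while its 14.2% for the oligodendrocyte list lay between the values of the other oligodendrocytes.

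Other neuronal genes were found in Oligo5-2 as well. Of a list of 30 pan-neuronal genes without the 6, Oligo5-2 had 18 with 72 transcripts, 1.16% of the cell (0.922 to 1.46%). The other cells had from 0 to 10 transcripts of the list, at most 0.0871% of a cell. Among the leading genes were Snhg11 (16 transcripts, with 3 in OPC-labelled 2), Scn2a1 (14), and Celf4, Chgb, Map2 and Mapt (5 each, Mapt with 3 in Oligo5-1). For 14 of the 18, no transcript was found in another cell, but 7 of the 14 had a single transcript. The same held for 758 (30.3%) of all 2498 genes of Oligo5-2. With 2 or more transcripts there, 7 of 11 genes of the list and 175 of all 979 genes (17.9%) were in no other cell. The list was not found as a whole, since 11 of its genes, among them Tubb3, Thy1, Uchl1 and Gap43, had no transcript in any cell.

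Genes of transmitter release followed the neuronal list only in part. In Oligo5-2, 8 of 22 were detected with 46 transcripts, but 25 of these were of Syt11, which had 63 in Oligo1-1, 44 in Oligo1-2 and 31 in Oligo5-1. Napb (5), Sv2b (3) and Syt4 (3) were found in Oligo5-2 alone, and Sv2a (5) also in each of the other oligodendrocytes. Of 10 genes of excitatory neurons, Camk2a and Neurod1 had 1 transcript each, and of 15 of inhibitory neurons, Cnr1 had 4 and Cck 2. Among other cell types, the astrocyte list had 17 transcripts, all of Slc1a2 with its other 9 genes at 0, and the lists of progenitors, microglia and endothelial cells had 1 (Olig1), 0 and 1 (Egfl7). Whether the neuronal transcripts were made by Oligo5-2 or entered its library from other material was not tested.

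Several close relatives of the 6 genes were found in other cells. Of the Syt1 relatives, Syt11 had 25 transcripts in Oligo5-2 and more in each of the other oligodendrocytes, as given above, and Syt4 had 3 in Oligo5-2 alone. Of the SNAP25 relatives, Snap23, the form common outside neurons, had 3 transcripts in Oligo1-1 and 1 in Oligo5-2, Snap47 had 1 in Oligo5-2 and Snap29 had 0 in every cell. Ndrg1 had 14 transcripts in Oligo5-1 and 6 in Oligo5-2, Ndrg3 had 2 in Oligo1-1, 2 in Oligo5-1 and 3 in Oligo5-2, and Ndrg2 had 0. Stmn4 had 3 in Oligo1-1, 3 in Oligo5-1 and 0 in Oligo5-2, whereas Stmn3 had 1 in Oligo5-2 alone and Stmn1 had 0. Rbfox1 and Rbfox2 had 1 and 2 transcripts, all in Oligo5-2. Dlk1, Rian and Mirg, which lie in the same imprinted domain as Meg3, had 0 in every cell.

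Snap25 (ENSMUSG00000027273.13, chr2:136713453-136782428, plus strand) had 19 transcripts from 30 reads, with 1 to 4 reads each, read in all 7 SMRT cells (sequencing chips). 9 transcripts reached exon 5. Of these, 6 held 5a (66.7%, 35.4 to 87.9%, 9 reads) and 3 held 5b (33.3%, 12.1 to 64.6%, 3 reads). No transcript held both versions, and none that ran from exon 4 to exon 6 lacked both. The deposited exon numbers give the 5a transcripts as running from exon 4 to exon 6, and the version shows only in the block positions.

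Both versions were found in complete coding form. 8 transcripts of Snap25 held the whole coding sequence, 5 with 5a and 3 with 5b, and all 7 junctions of each of these lay at annotated introns, except in 1 of the 5a transcripts. In that transcript the first block was 47 bases at chr2:136713737-136713783, 137 bp after exon 1 and over no annotated exon, and it was joined to exon 2. In all, 74 of the 75 junctions of Snap25 matched an annotated intron to the base. Of the 7 Snap25 transcripts whose 5′ ends fell within 5 bp of each other at 136713481 to 136713485, 1 held 5a and 2 held 5b.

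The remaining 4 of these 7 had another structure. They held exons 1 to 3, ran through exon 4 and ended 568 to 569 bp inside intron 4, at 136764189 to 136764190, over no annotated exon. 4 of 19 is 21.1% of the Snap25 transcripts, and they came from 8 reads in 4 SMRT cells, with 2 of the 4 at 3 reads each. Their 5′ ends, 136713481 to 136713484, were those of full-length Snap25. After UMIs that differed by 1 base or a shift of 1 base were joined, 3 of them remained. The genomic sequence at this end was not read here.

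**Figure D2:**
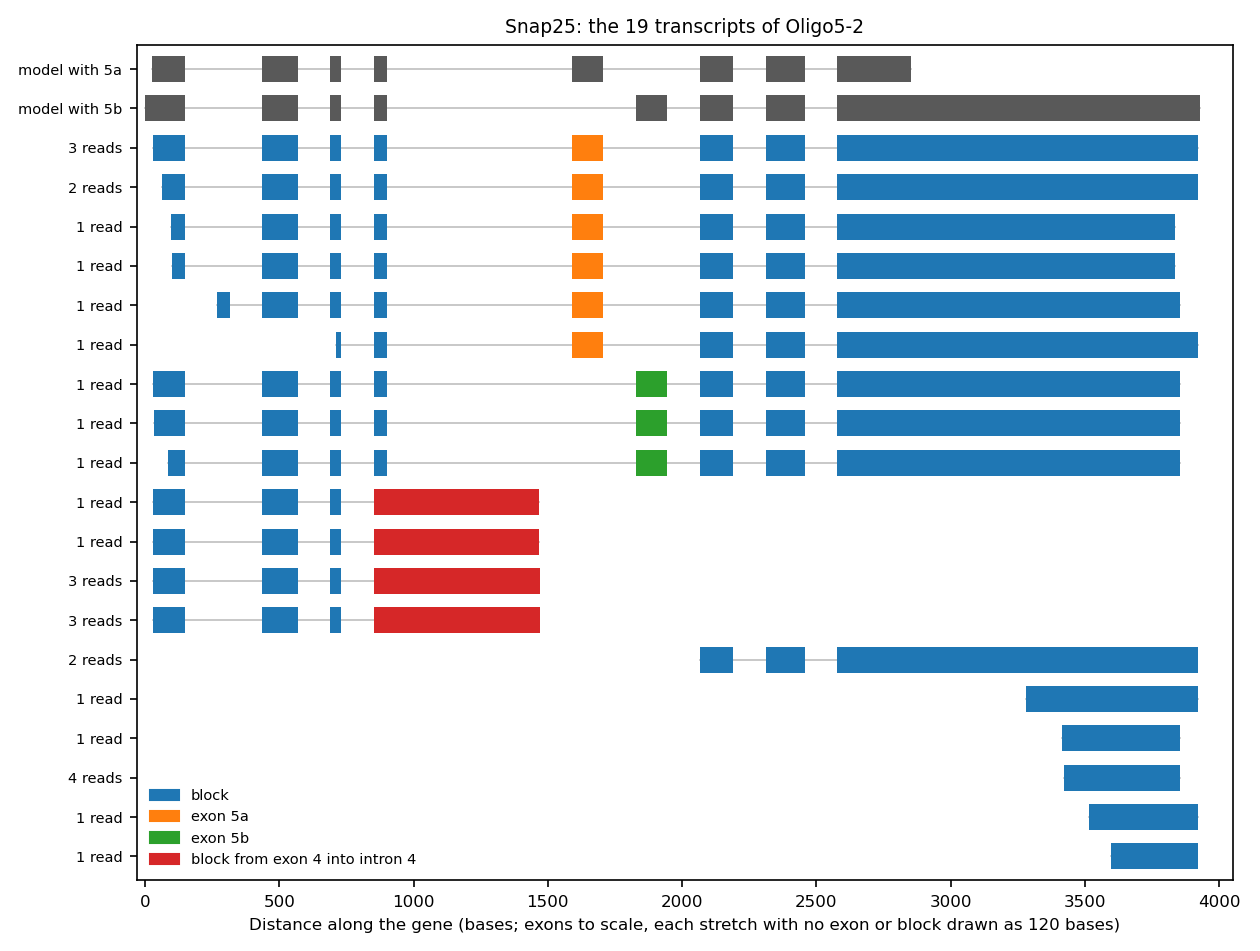
The 19 Snap25 transcripts of Oligo5-2, 1 per row with its reads, under the RefSeq-linked models that hold 5a and 5b; x axis, distance along the gene in bases, with exons to scale and every stretch without an exon or block drawn as 120 bases. 6 rows hold 5a (orange), 3 hold 5b (green), 4 run from exon 4 into intron 4 (red), 1 starts at exon 6, and 5 lie in the last exon.

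The 3′ ends of Snap25 fell on 4 sites, each spanning 1 bp. 7 transcripts ended at 136782418 to 136782419, 9 to 10 bp before the annotated end, 6 ended at 136782353 to 136782354, 2 at 136782334 to 136782335, and 4 in intron 4. All 3 transcripts with 5b ended at the second of these sites, where 1 of the 6 with 5a ended, while 3 with 5a ended at the first site and 2 at the third. With 9 transcripts these are counts and no more.

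The last 30 bases before the ends, with a poly-A signal in capitals where one was found, show what lay at the sites that most transcripts used. They are read 5′ to 3′ from GENCODE M21 transcripts, at chr2:136782390-136782419, chr2:136782324-136782353 and chr2:136782306-136782335 (plus) for Snap25, at chr10:108497653-108497682 and chr10:108498261-108498290 (minus) for Syt1, at chr8:95714925-95714954 (plus) for Ndrg4, at chr12:109571694-109571723 (plus) for Meg3, at chr3:8560461-8560490 and chr3:8560422-8560451 (plus) for Stmn2, and at chr11:118489767-118489796 (minus) for Rbfox3.
Snap25, 7 transcripts: agtttaaaattATTAAAaattatagatcac
Snap25, 6 transcripts: agcatgtatATTAAAtccctcctgtctcct
Snap25, 2 transcripts: tgagataaatatcattacagcatgtatatt
Syt1, 6 transcripts: gacactcAATAAAaatgttttatttcctgt
Syt1, 3 transcripts: caagtcctaccaaagagaaggagttgactt
Ndrg4, 8 transcripts: gtgcagaaaaactAATAAAgaaattaagtc
Meg3, 3 transcripts: ggtgctttcAATAAAtttcttgttttaact
Stmn2, 2 transcripts: gaatcaaaaataaAATAAAaatcaatgcgg
Stmn2, 1 transcript: tttaaaaagaactcattatgaaaaacaaaa
Rbfox3, 1 transcript: ttattaagattAATAAAgatttctttcttc

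The search was for AATAAA, the common poly-A signal, and ATTAAA, its main variant, on the transcribed strand in the last 50 bases. Of 13 end sites of the 6 genes, 12 lay in annotated exons and could be read. AATAAA was found at 5 of them with 20 transcripts, ATTAAA alone at 2 with 13 transcripts, and neither at 5 with 8 transcripts. In the same window before the annotated ends of 28797 RefSeq-linked coding transcripts, 57.4% held AATAAA and 70.5% held either. One of the signals thus stood at 7 of the 12 readable sites, and before the ends of 33 of the 41 transcripts there. The background counts each annotated transcript once, so the count of sites is the nearer one to set beside it. Where found at the sites shown, the first base of the signal lay 17 to 23 bases before the end.

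Ends without a signal were of more than one kind. The 3 Syt1 transcripts that ended 609 to 611 bp short of the annotated end stood before a stretch with 13 A in the next 20 bases, the single Stmn2 transcript at 8560451 before 14 A in 20, and a single Meg3 transcript at 109545319 before 20 A in 20, read from the RefSeq promoter window (GRCm38.p6) that covers that position. By contrast, 3 A in 20 followed the Snap25 site at 136782335 and also the end of the spliced Meg3 transcript at 109559186. Whether reverse transcription primed on the A-rich stretches was not tested.

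Syt1 (ENSMUSG00000035864.14, chr10:108497650-109010982, minus strand) had 9 transcripts from 11 reads in all 7 SMRT cells. Every one was a single block inside the last exon, 554 to 2274 bases long, so that none covered a junction, the coding sequence as a whole or a first exon. 6 ended at 108497651 to 108497653, within 1 bp of the annotated end. Their 5′ ends were spread, with 2 of 9 transcripts within 5 bp of each other and the rest alone. For Syt1 the data thus hold the 3′ part of the RNA and no splicing state.

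Ndrg4 (ENSMUSG00000036564.17, chr8:95676980-95715119, plus strand) had 8 transcripts of 1 read each, and all 8 ended at 95714953 to 95714955, 1 to 3 bp before an annotated end. 5 were single blocks in the last exon. 2 started at 95703056 to 95703057 and ran through the 14 exons of ENSMUST00000080666.7, which codes for 339 residues. In 1 of these the first junction, inside the coding sequence, was placed 5 bases before the annotated exon end and 2 bases before the next exon start. One started at 95678280, in the first exon of a 17-exon GENCODE transcript (ENSMUST00000041318.13) that is not linked to RefSeq, and held 16 blocks. All 3 spliced transcripts lacked the 39-base exon at chr8:95712325-95712363, which the 15-exon RefSeq-linked model of 352 residues holds. The other 40 of the 41 junctions of Ndrg4 matched an annotated intron to the base.

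The 5′ ends of the 3 spliced Ndrg4 transcripts bear on promoters listed by RefSeq (GRCm38.p6). The 100 bases before the start at 95703056 and before the start at 95678272 are shown because transcripts began 0 to 1 base and 8 bases after those starts, and capitals mark TATAAA.
chr8:95702956-95703055 (plus): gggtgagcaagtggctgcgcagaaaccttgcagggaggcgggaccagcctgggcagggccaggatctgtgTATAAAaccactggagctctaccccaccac
chr8:95678172-95678271 (plus): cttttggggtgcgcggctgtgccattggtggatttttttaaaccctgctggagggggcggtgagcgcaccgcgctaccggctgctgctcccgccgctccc

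TATAAA on the transcribed strand stood 30 bases before the start at 95703056 and was not found before the other. The same letters are in 3.80% of 32851 listed promoter windows on the transcribed strand and in 5.56% on either strand. Both starts were read from a single cell with 1 read a transcript.

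**Figure D3:**
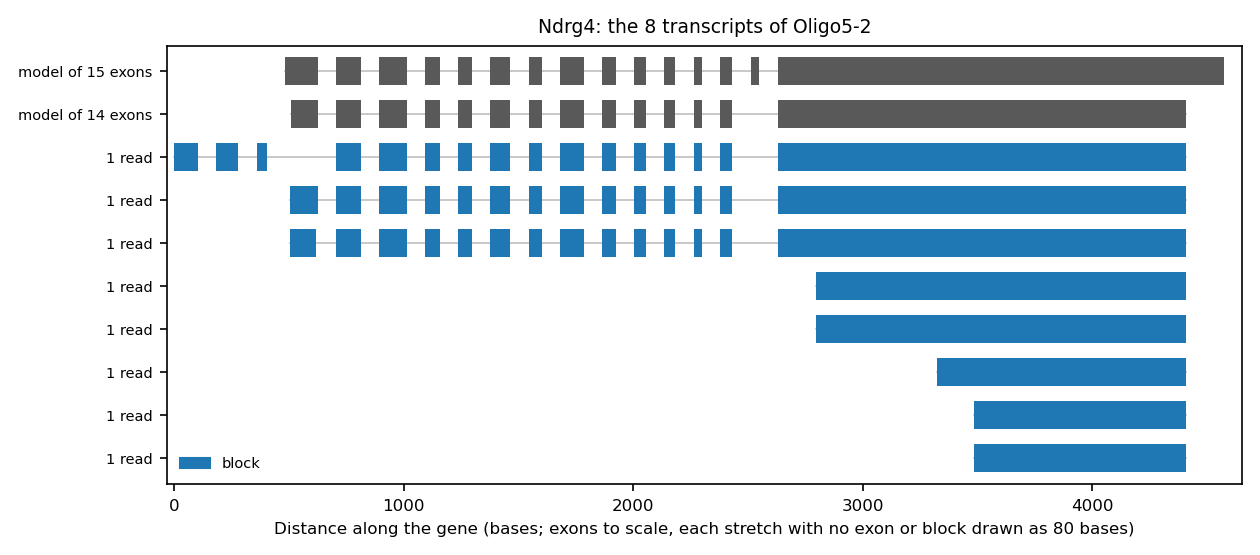
The 8 Ndrg4 transcripts of Oligo5-2, 1 per row with its reads, under the RefSeq-linked models of 15 and 14 exons; x axis, distance along the gene in bases, with exons to scale and every stretch without an exon or block drawn as 80 bases. 3 rows are spliced, from 2 start sites, without the 39-base exon, and 5 lie in the last exon, all with the same end.

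Stmn2 (ENSMUSG00000027500.10, chr3:8509360-8561606, plus strand) had 3 transcripts of 1 read each, and all 3 were spliced. 2 ran through the 5 exons with the whole coding sequence of 179 residues, from 8509537 and 8509555, and the third held exons 3 to 5. All 10 junctions lay at annotated introns to the base. The ends at 8560489 to 8560490 (2 transcripts) and 8560451 (1) were 1116 to 1155 bp before the annotated end, so that most of the annotated last exon was not covered.

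Meg3 (ENSMUSG00000021268.17, chr12:109541001-109571726, plus strand) had 5 transcripts of 1 read each. 3 were single blocks in the last exon of ENSMUST00000146701.7 and ended at 109571722 to 109571723, 3 to 4 bp before its end and 1 to 2 bp past that of ENSMUST00000143836.7. One held 5 blocks with 4 annotated junctions and ended 3 bp before another annotated end, at 109559186. The last was a single block at chr12:109544701-109545319. It spanned an intron of the longest exon chain that RefSeq links to the gene. No other transcript of the 6 genes spanned a whole intron of such a chain. Yet this block lay in full inside the last exon (chr12:109544027-109545319) of another GENCODE transcript, ENSMUST00000129245.7, and ended at its annotated end.

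Rbfox3 (ENSMUSG00000025576.17, chr11:118489762-118911597, minus strand) had 1 transcript of 1 read. It was a block of 521 bases in the last exon that ended 3 bp before the annotated end, so its splicing could not be read.

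**Figure D4:**
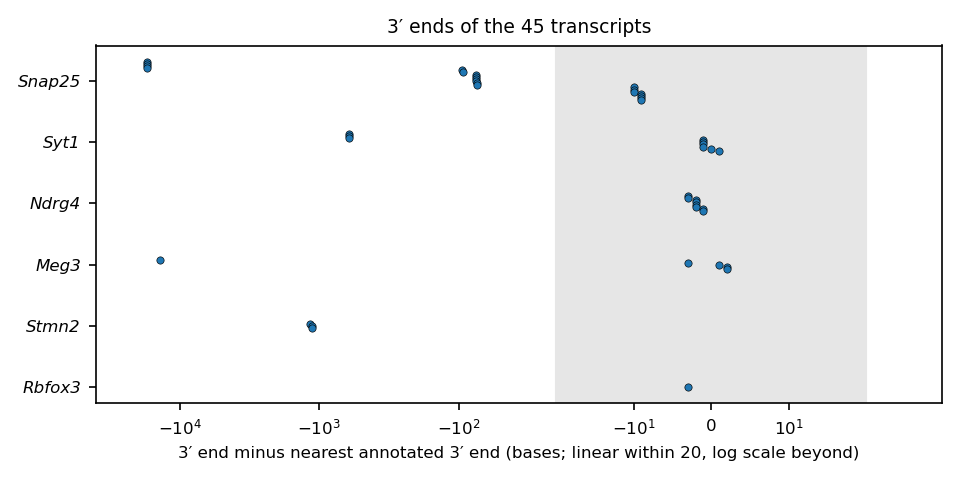
Distance from the 3′ end of each of the 45 transcripts to the nearest annotated 3′ end of a RefSeq-linked transcript (x axis, in bases, linear within 20 and logarithmic beyond; negative is before the end); each point is 1 transcript and the grey band marks 20 bases to either side. All Ndrg4 ends and the Rbfox3 end lie in the band, and Stmn2 has no end in it.

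Over the 6 genes, 21 of 45 transcripts were spliced, meaning that they held at least 1 junction at an annotated intron (46.7%, 32.9 to 60.9%). A further 23 transcripts lay in a last exon and held no junction to read. Of the 22 that reached beyond it, 21 were spliced (95.5%, 78.2 to 99.2%), and 128 of 130 junctions were at annotated introns (98.5%, 94.6 to 99.6%). 14 of the 21 were of Snap25, among them the 4 that ended in intron 4, since 1 junction was enough to count. 1 transcript spanned a whole intron (2.22%, 0.393 to 11.6%). It was the single Meg3 block given above, which was also the 1 of the 22 without a junction. That block lay inside the last exon of a GENCODE transcript not linked to RefSeq. 5 transcripts had 20 or more bases in an intron that no annotated exon covers, all of them of Snap25 (11.1%, 4.84 to 23.5%). This share was not taken for the other sets, so it has no background here.

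The same measures were taken on the 6023 other transcripts of Oligo5-2 with a gene model and on the 881 of the oligodendrocyte list. Of those that reached beyond the last exon, 92.5% (91.6 to 93.2%) of all others and 99.5% (98.7 to 99.8%) of the oligodendrocyte list were spliced, beside 95.5% of the 6 genes and 90.0% (74.4 to 96.5%) of the pan-neuronal list. Among all transcripts, whatever their reach, the spliced shares were 65.1% (63.9 to 66.3%) of the others, 74.3% (71.4 to 77.1%) of the oligodendrocyte list and 37.5% (27.2 to 49.0%) of the pan-neuronal list, and the interval of the 6 genes lay below the first pair of these. A whole intron was spanned by 1.48% of the others, 0.227% of the oligodendrocyte list and 0% of the pan-neuronal list.

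At the 5′ side, 16 of the 45 covered an annotated first exon (35.6%, 23.2 to 50.2%), 11 of them of Snap25, beside 49.8% (48.5 to 51.1%) of the others, 66.4% (63.2 to 69.4%) of the oligodendrocyte list and 23.6% (15.3 to 34.6%) of the pan-neuronal list. Any overlap counted, so that 1 Meg3 transcript with 28 bases of a first exon was included. The Ndrg4 transcript from 95678280 was not, since its first exon is that of a transcript not linked to RefSeq. The whole coding sequence, with junctions within 5 bp of the annotated ones, was held by 12 of the 40 transcripts of the coding genes (30%, 18.1 to 45.4%), beside 39.2% (38.0 to 40.5%), 63.2% (60.0 to 66.3%) and 13.9% (7.72 to 23.7%). Any gene to which GENCODE gives a coding sequence counted as coding, which left Meg3 out of the 40. The base of the 13.9% was all 72 transcripts of the pan-neuronal list, the 16 of Snhg11 included, so no gene was left out there. The median length was 922 bases for the 6 genes, 1182 for the others, 1939 for the oligodendrocyte list and 890 for the pan-neuronal list. The sets differed in the share of transcripts with a read from the long run, which the study enriched for longer fragments. It was 51.1% for the 6 genes, 54.0% for the others, 70.3% for the oligodendrocyte list and 36.1% for the pan-neuronal list. How far the run bears on the shares and lengths of this paragraph was not tested.

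At the 3′ side, 26 of the 45 ended within 20 bp of an annotated end (57.8%, 43.3 to 71.0%), which covers all 8 of Ndrg4 and none of Stmn2. The share was 45.4% (44.2 to 46.7%) of the others, 50% (38.7 to 61.3%) of the pan-neuronal list and 25.2% (22.4 to 28.2%) of the oligodendrocyte list. The interval of the 6 genes overlapped that of the others and lay above that of the oligodendrocyte list.

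**Figure D5:**
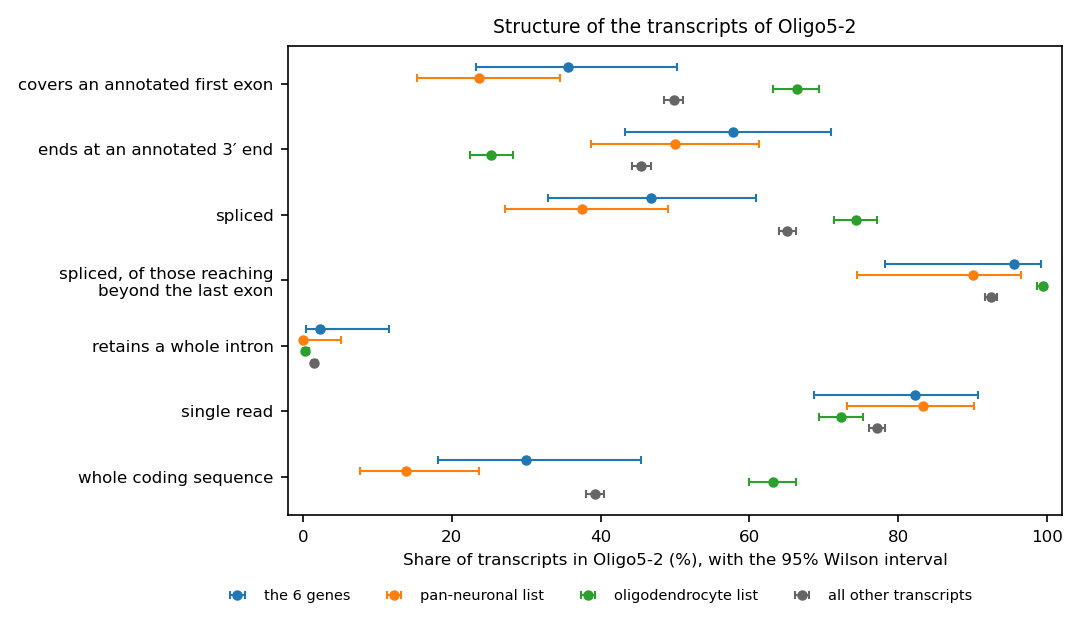
Share of transcripts in Oligo5-2 (x axis, in %) with each structure, for the 6 genes, the pan-neuronal list, the oligodendrocyte list and all other transcripts; points are shares and bars are Wilson intervals. The 6 genes and the pan-neuronal list overlap in every measure, and among transcripts that reach beyond the last exon the 6 genes stand at 95.5%.

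Reads per transcript were low for the 6 genes and for the cell. The 45 transcripts came from 58 reads, a mean of 1.29, beside 1.31 for the others, 1.43 for the oligodendrocyte list and 1.19 for the pan-neuronal list. A single read stood behind 37 of the 45 (82.2%, 68.7 to 90.7%), beside 77.2% of the others (76.1 to 78.2%). The 8 with 2 or more reads were 6 of Snap25 and 2 of Syt1. Oligo5-2 as a whole had the largest share of single-read transcripts of the 6 cells, 76.7% against 45.2 to 74.6%.

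10 pairs of UMIs within a gene differed by 1 base or a shift of 1 base, and in 3 of these pairs (1 each of Snap25, Ndrg4 and Meg3) both transcripts had the same blocks and ends. Joining such UMIs left 35 transcripts, with Snap25 at 13, Ndrg4 at 5 and Meg3 at 4.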

How the data were processed

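The data were polyA RNA of 6 single cells captured on the Fluidigm C1 and sequenced on PacBio in a short and a long run. The authors split concatemers, kept reads with a poly-A tail and the cell's barcode on either side, aligned the reads to mm10, joined blocks under 40 bp apart and merged reads of the same UMI. The deposited table gives, for each of 36659 transcripts, its block positions and its counts of reads, with no normalization. It names no chromosome, so genes were matched by name to GENCODE M21 (6334 of 6357 names, and all 6 members), and 356 transcripts assigned to several genes were left out of the structure measures. First exons and 3′ ends were those of transcripts linked to RefSeq, any overlap with a first exon counted as covering it, 3′ ends matched within 20 bp, and junctions matched any GENCODE intron within 1 bp. An exon 5 was called where a block covered 0.5 or more of it. Ends within 5 bp of each other formed a site.

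Shares have Wilson intervals, a count of 0 was read as up to 3 counts, and UMIs of PCR-amplified cDNA are counted once, so that intervals cover counting error only. The depth was 2338 to 11483 transcripts a cell. With 2 cells a class and no stated animal, no test was made, and transcripts of 1 cell are not replicates. The structure measures were tested on made-up transcripts of known structure. The members, marker lists and measures were chosen with earlier results of these data known. Named genes were the members, their relatives, at most 5 genes of each list with the most transcripts in Oligo5-2, and the 10 genes whose transcripts lay most fully in that cell. Values of some single genes of the lists are not reported here. Tubb3, Thy1, Uchl1 and Gap43 were named after their values were seen. Alternatives changed the read minimum, UMI joining, annotation set, tolerances, genes and cells. Python 3.11.15, pandas 2.3.3 and numpy 2.4.6 were used.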

Additional observations from a re-analysis of the deposited data

How the results depend on the processing

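The share of the 6 genes' transcripts in Oligo5-2 was 100% under each of its 7 alternatives, which the choice of the genes fixes and which says nothing on stability. Of 24 alternatives to the other shares, 14 lay inside the interval of the share as reported. With 2 or more reads, the 5b share was 0% (0 of 2), the spliced share 62.5% (5 of 8) and the pan-neuronal share 0.829%. Leaving out Snap25, the gene with the most transcripts, gave 19.2% for first exons, 73.1% for annotated 3′ ends, 26.9% for splicing and 92.3% for single reads. A 5 bp limit gave 42.2% for annotated 3′ ends, since 7 Snap25 ends lie 9 to 10 bp before the annotated end. Close UMIs joined gave 60% for single reads and 50% (3 of 6) for 5b. Joining sums the reads, so every joined group has 2 or more whatever its structure, and the 60% says nothing on stability. The transcript with the most reads stood for each group, although only 1 of the 6 close pairs of Snap25 had the same blocks and ends. Leaving out Snhg11 gave 0.902% for the pan-neuronal list. First exons and 3′ ends of any GENCODE transcript, alternatives chosen after the data were seen, gave 42.2% and 60%. No paired analysis was possible because no result comes from a test, and the numbers of the cells are names that do not tie cells to an animal. Counts of 1 to 9 transcripts limit every statement on 1 gene, and reads that stop in a last exon give no splicing state.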
